A study of Mus musculus with 66 samples.

Results

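The histone marks H3K9me3 and H3K36me3 were examined at 10 imprinted mouse genes, namely Peg3, Kcnq1ot1, Igf2r, Peg10, Mest, Grb10, Nnat, Gnas, Plagl1 and Meg3. The genes were chosen by name for their imprinting, with earlier results of these data known. Each locus was taken as the gene body on the GRCm38 genome with 20 kb on either side, and an enriched interval ("island") belonged to a locus where it overlapped this window. Of 52559 H3K9me3 regions, meaning stretches that islands of 11 or more of the mark's 22 libraries covered, 4 lay in these windows. Of 31085 H3K36me3 regions, 12 did. Counted library by library, the 10 windows held 171 H3K9me3 islands and 282 H3K36me3 islands.

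The tissue was prefrontal cortex of adolescent male and female DBA/2J mice, an inbred strain that carried no engineered allele here. Ethanol mice were gavaged intermittently with 4 g/kg of 25% (w/v) ethanol between postnatal day (PND) 29 and PND 42, water mice received water on that schedule, and the cortex was collected 24 h after dosing ended. Each library came from a pool of 3 mice, with 6 ethanol pools and 5 water pools in each sex, and each of the 22 pools gave an H3K9me3 library, an H3K36me3 library and an input library of unprecipitated chromatin that serves both marks. Pools are the replicates throughout, so p-values measure the spread between pools. Because the mice are inbred, reads from the maternal and paternal copies of a gene could not be separated. In this bulk tissue, a mark carried by fewer cells and a weaker mark in each cell cannot be told apart.

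An imprinted gene is read from the copy inherited from a given parent while the other copy is silent. The choice is carried by a differentially methylated region, often at a promoter, that keeps its DNA methylation on a single parental copy. On the methylated copy the zinc finger protein ZFP57 recognises the letters TGCCGC and recruits KAP1 and the methyltransferase SETDB1, which place H3K9me3. H3K36me3 is placed over the bodies of transcribed genes behind elongating RNA polymerase II. H3K9me3 is also the general mark of silenced transposons, so an H3K9me3 island at an imprinted locus need not lie at its imprinting control sequence.

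The H3K9me3 libraries held 41363 to 72480 islands and 5.73 to 14.2 M precipitated reads inside them, and the H3K36me3 libraries held 19617 to 61910 islands and 1.70 to 4.79 M reads. The median island stood 1.17 to 1.71-fold over input in the H3K9me3 libraries and 1.05 to 1.71-fold in the H3K36me3 libraries. Among the H3K36me3 libraries, male ethanol pool 4 had the fewest islands and reads, and within the 10 windows it listed islands at Peg3 and Kcnq1ot1 alone. Male ethanol pool 6 had the lowest median fold, with 85.0% of its islands at a false discovery rate (FDR) above 0.05. Female water pool 2 stood apart among the H3K9me3 libraries, with 56.3% of its islands above that FDR and the lowest median fold, 1.17, and the next library had 22.3%. Among marker genes of cell types, the neuronal genes Rbfox3 and Syt1 had an H3K36me3 island over their bodies in 19 and 18 of 22 libraries, while Snap25 had one in 3 and Gad1 in 1. The liver genes Alb and Apoa1 and the T cell gene Cd3e had none, the muscle genes Myh7 and Ckm had one in 3 and 1 libraries, and the astrocyte genes Slc1a2, Aqp4 and Gfap had one in 6, 1 and 0. The oligodendrocyte genes Mbp, Mobp and Mog had one in 12, 3 and 0, and the microglial genes Cx3cr1 and Csf1r in 17 and 2. A longer body has more room for an island. Rbfox3 and Syt1 span 422 and 513 kb, and Alb, Apoa1 and Cd3e 15.7, 1.89 and 10.9 kb, so these counts cannot check the tissue. H3K36me3 islands were thus missing from many libraries at genes that cells of the cortex express, and below a gene without an island is described only as not listed.

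Promoters that lie at the imprinted differentially methylated regions were examined first, because the ZFP57 mechanism acts at those regions. At Meg3 the promoter was taken, although imprinting of that domain is set at an intergenic region upstream and the promoter gains its methylation later. There were 11 such starts, since Gnas has both the Nespas promoter and a downstream alternative start, and Igf2r is represented by the promoter of Airn, the antisense RNA inside it. These 200-base stretches hold the densest motif copies near the starts of Peg3, Airn, Nespas and Plagl1. They are shown because the mechanism described above would place H3K9me3 at such sequences. They are written in the direction of transcription from GRCm38.p6, with copies of TGCCGC (or GCGGCA on the other strand) in capitals, and no annotated exon overlaps any of them.
Peg3, chr7:6729981-6730180, minus strand: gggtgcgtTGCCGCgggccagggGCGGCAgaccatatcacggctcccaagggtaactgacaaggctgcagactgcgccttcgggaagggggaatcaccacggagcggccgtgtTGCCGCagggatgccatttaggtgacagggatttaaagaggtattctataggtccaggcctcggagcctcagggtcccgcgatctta
Airn in Igf2r, chr17:12741591-12741790, plus strand: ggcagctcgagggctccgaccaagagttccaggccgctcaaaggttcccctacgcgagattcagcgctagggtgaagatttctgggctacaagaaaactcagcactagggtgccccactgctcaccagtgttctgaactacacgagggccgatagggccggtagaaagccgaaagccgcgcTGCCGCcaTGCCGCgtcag
Nespas at Gnas, chr2:174295766-174295965, minus strand: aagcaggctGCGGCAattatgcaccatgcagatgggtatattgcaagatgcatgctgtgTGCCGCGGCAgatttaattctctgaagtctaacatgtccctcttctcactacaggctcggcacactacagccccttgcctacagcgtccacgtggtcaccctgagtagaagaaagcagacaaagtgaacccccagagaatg
Plagl1, chr10:13091062-13091261, plus strand: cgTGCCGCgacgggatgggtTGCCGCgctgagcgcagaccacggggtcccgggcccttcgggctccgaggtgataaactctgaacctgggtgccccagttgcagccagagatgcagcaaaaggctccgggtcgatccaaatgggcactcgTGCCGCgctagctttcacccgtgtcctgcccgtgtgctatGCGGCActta

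Each of the 11 starts had at least 1 copy of the motif within 1 kb, counted on both strands with overlapping copies included, and 9 of 11 had at least 3. Among 21938 protein-coding starts, 43.0% had a copy in a window of that size and 7.16% had at least 3. The motif itself holds a CpG, and the windows of the 11 starts held 69 to 138 CpGs. The protein-coding starts were not matched to them for CpG content. Mest had the most copies, with 12, and Meg3 had 1, while Peg3, Nnat and Plagl1 had 6 each, Airn and Nespas 5 each, Grb10 and the downstream Gnas start 4 each, Kcnq1ot1 3 and Peg10 2. A match is a description of the letters and not a measured binding site. In the 2-kb centres of the H3K9me3 and H3K36me3 regions inside the 10 windows the motif was found in 0 of 4 and 0 of 12, against 3.30% and 3.83% of all regions of the 2 marks.

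**Figure D1:**
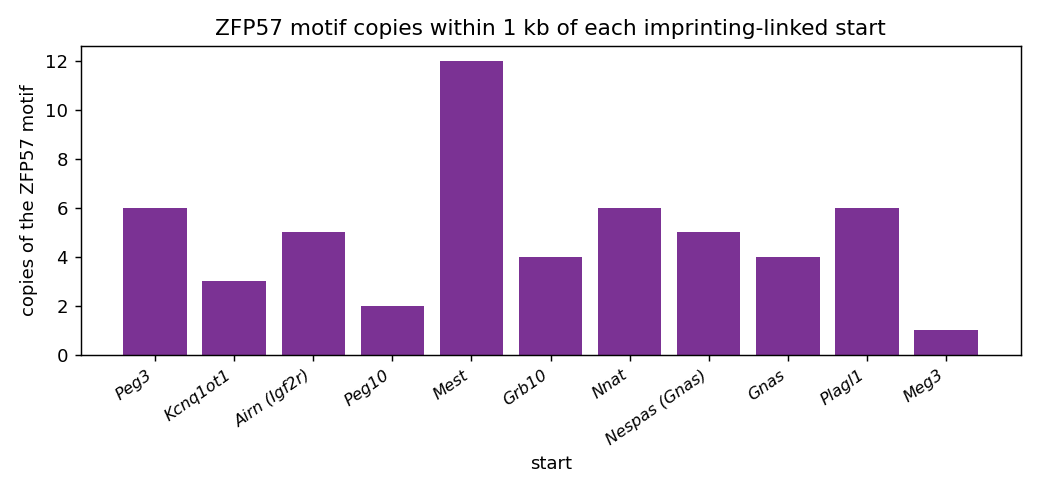
Bars give the number of copies of the ZFP57 motif (y axis) within 1 kb of each of 11 imprinting-linked starts (x axis). The counts run from 1 at Meg3 to 12 at Mest.

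No H3K9me3 island of any of the 22 libraries lay within 2 kb of any of these 11 starts. For comparison, 11.8% of all protein-coding starts had an H3K9me3 island that close in at least 1 library and 3.90% in at least 11. The nearest listed H3K9me3 island was 2.98 kb from the Peg3 start and 4.64 kb from the Nespas start. It was 10.9 kb away at Peg10, 20.3 kb at Grb10, 22.5 kb at Nnat and 22.6 kb at the downstream Gnas start. At Airn, Kcnq1ot1, Meg3, Mest and Plagl1 it was 45.9, 53.5, 60.2, 64.7 and 73.8 kb away. Whether narrower peaks were present at the starts cannot be read from these lists, which hold broad intervals built from 200-bp windows. H3K36me3 came within 2 kb of 1 of the 11 starts, at 1.98 kb from Peg3 in 1 library, against 18.9% of all protein-coding starts in at least 1 library.

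**Figure D2:**
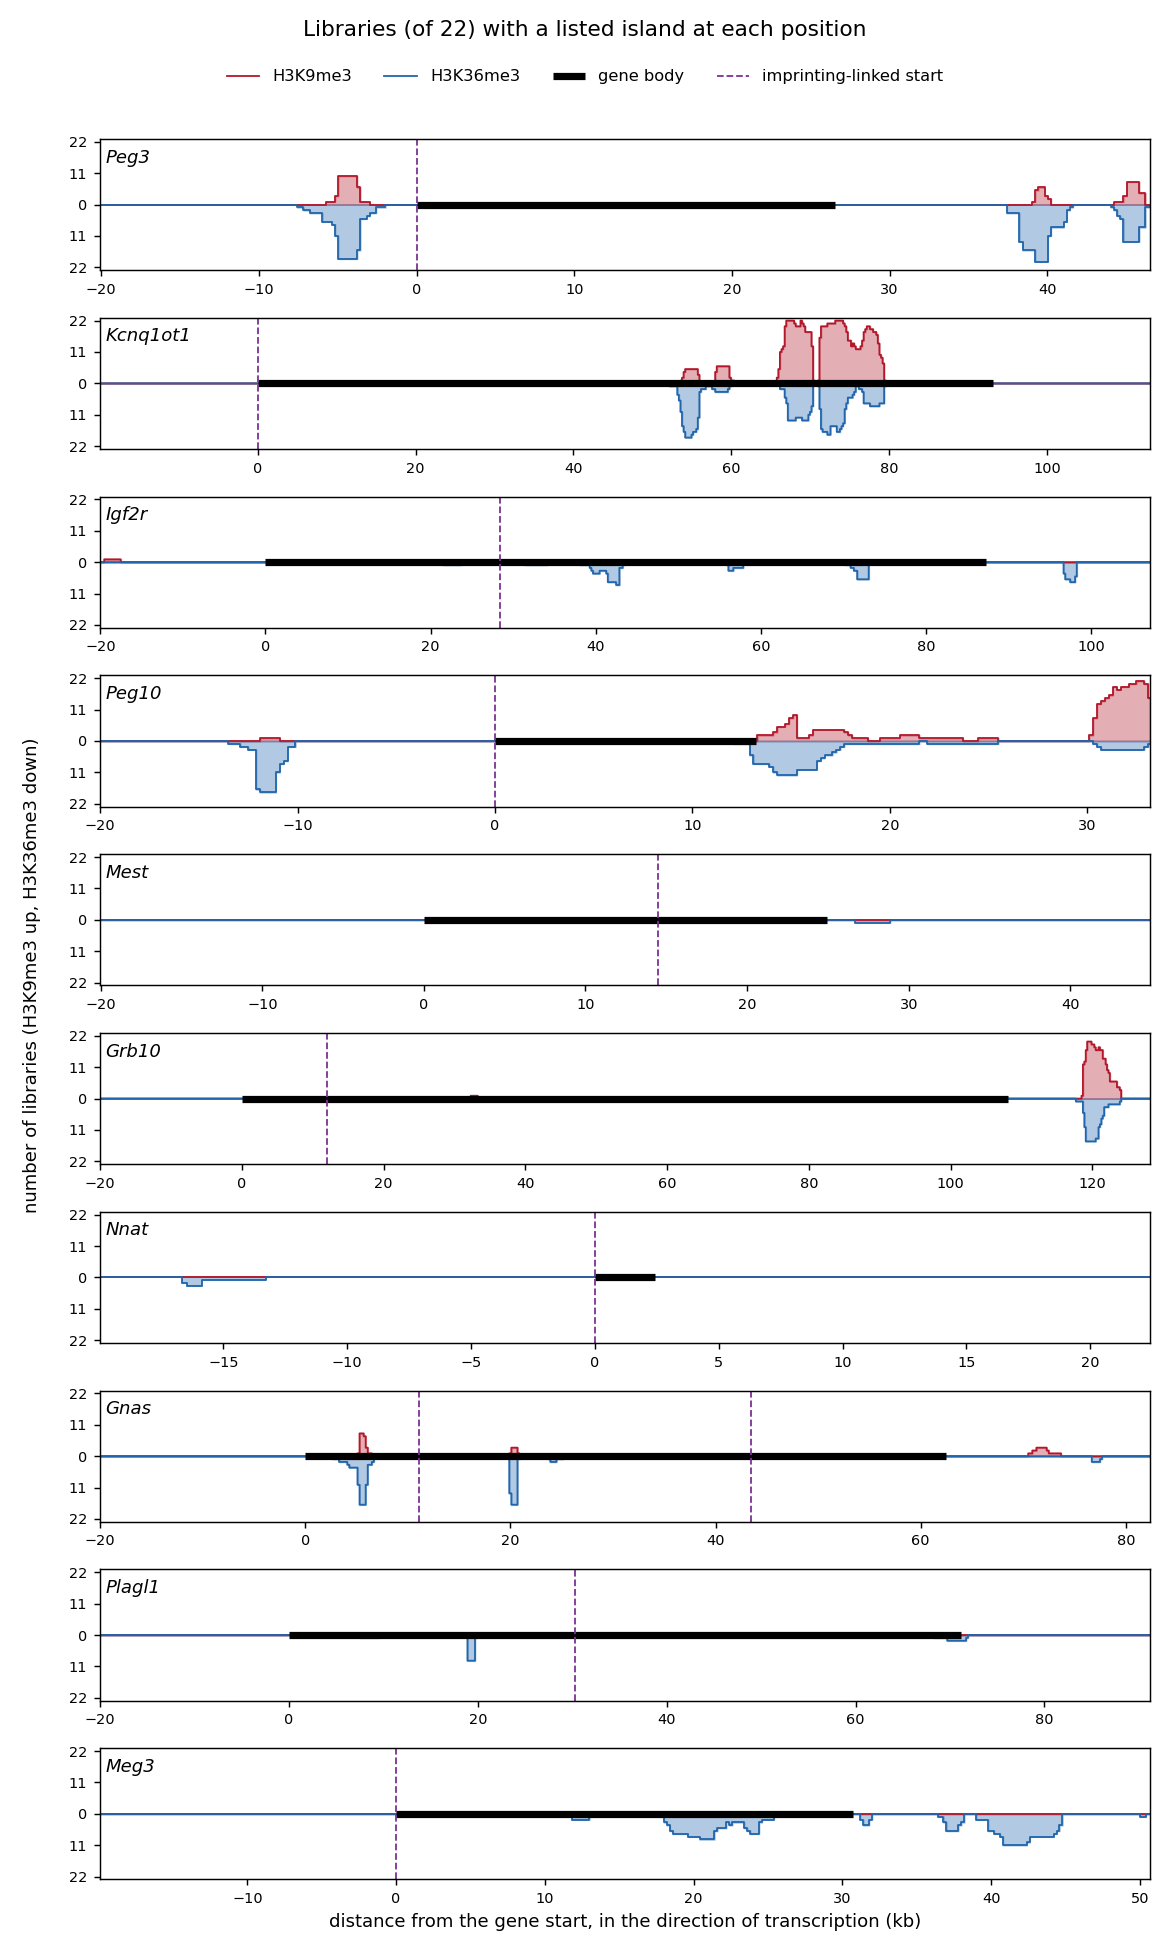
Each panel plots, along 1 gene and its flanks of 20 kb (x axis, kb from the gene start in the direction of transcription), the number of the 22 libraries with a listed island (y axis, H3K9me3 upward in red, H3K36me3 downward in blue). The black bar is the gene body and the dashed lines are the imprinting-linked starts, none of which meets a red peak. Kcnq1ot1 reaches 22 libraries, and Mest, Nnat, Plagl1 and Meg3 have no red signal.

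H3K9me3 islands occurred somewhere in the windows of 6 of the 10 genes. Kcnq1ot1 had one in 22 of 22 libraries, Peg10 in 21, Grb10 in 20, Peg3 in 16, Gnas in 11 and Igf2r in 1, while Mest, Nnat, Plagl1 and Meg3 had none in any library. Such emptiness was common, since 40.4% of all 32093 gene windows had no H3K9me3 island in any library and 22.3% had one in all 22. Overlapping islands of all libraries merged into 18 places, of which 4 were seen in at least 11 libraries and 4 in a single library. Of the 171 islands, 86 (50.3%) had an FDR of 0.01 or lower, compared with 75.8% of all H3K9me3 islands. The lists also kept islands with fewer reads than the scaled input, and at 5 of the 18 places the median fold was below 1.

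The 4 recurrent H3K9me3 regions lay well away from the imprinting-linked starts, 2 of them inside Kcnq1ot1 and 1 each past the 3′ ends of Peg10 and Grb10. The most widely covered 200-base window of the 2 Kcnq1ot1 regions and of the Peg10 region is given on the plus strand of GRCm38.p6, with CpG dinucleotides in capitals. They are shown because H3K9me3 islands recurred at these sequences in 21 or 22 libraries.
Kcnq1ot1, longer region, chr7:143222801-143223000: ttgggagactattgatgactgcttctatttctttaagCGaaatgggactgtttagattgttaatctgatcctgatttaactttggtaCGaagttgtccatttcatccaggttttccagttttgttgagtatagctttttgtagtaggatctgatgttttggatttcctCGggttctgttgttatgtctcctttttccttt
Kcnq1ot1, shorter region, chr7:143229001-143229200: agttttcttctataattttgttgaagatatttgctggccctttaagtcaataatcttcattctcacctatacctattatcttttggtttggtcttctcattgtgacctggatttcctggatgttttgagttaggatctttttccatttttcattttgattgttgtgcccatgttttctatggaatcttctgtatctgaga
Peg10, 3′ side, chr6:4780001-4780200: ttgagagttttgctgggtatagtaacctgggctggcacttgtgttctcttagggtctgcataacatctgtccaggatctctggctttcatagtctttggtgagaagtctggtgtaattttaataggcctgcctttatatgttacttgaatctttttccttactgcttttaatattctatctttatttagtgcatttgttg

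All 3 of these windows were wholly repeat sequence (soft-masked in the genome file), with 0 to 3 CpGs each and no copy of the ZFP57 motif. The 4 whole regions were 82.8% to 97.8% repeat and 35.7% to 38.4% GC, where the medians of all H3K9me3 regions were 97.2% and 38.5%. The shorter Kcnq1ot1 region had the lowest value of both. Aligned to each other in pairs, they were 84.2% to 92.7% identical over their aligned bases, always in the same orientation. The aligned bases numbered 964 to 3305 per pair, and gaps were left out of the identity. The pair at 84.2%, the longer Kcnq1ot1 region and the Grb10 region, had 2782 identical bases in 4064 alignment columns. The closest pair was the Peg10 region and the longer Kcnq1ot1 region, at 92.7% over 1588 aligned bases. The 2 Kcnq1ot1 regions were 87.9% identical over 3215 aligned bases. The Peg10 and Grb10 regions share this run of 49 bases without a mismatch.
Peg10 and Grb10, shared run: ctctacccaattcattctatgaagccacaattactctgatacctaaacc
The run, searched on both strands, occurred in 597 of 52559 H3K9me3 regions (1.14%) and in 234 of 31085 H3K36me3 regions (0.753%). For H3K9me3 the authors removed reads that map to several places, so reads that fit several copies of such a repeat are not in these counts.

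Kcnq1ot1, a long antisense RNA that silences neighbouring genes on the paternal chromosome, held the 2 regions that every library listed. The longer one, chr7:143217801-143225400 (7600 bp), and the shorter one, chr7:143226201-143230400 (4200 bp), lie inside the transcript, which runs antisense to Kcnq1. Their merged islands were at least 70.9 and 65.7 kb downstream of the RNA's start. In the longer region the reads of male ethanol pools ran from 77 to 388 (median 236) and their fold over input from 1.04 to 1.44 (median 1.31). The 5 male water pools had folds of 1.30, 1.24, 1.23, 1.11 and 1.33, from 230 to 290 reads. Male ethanol pool 1 was the low library, with 77 precipitated and 72 input reads and islands over 2600 of the 7600 bp, and the groups overlapped.

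Female folds at this longer region reached higher than the male ones. Female ethanol folds ran from 1.24 to 1.71 (median 1.38) and the 5 female water pools had 1.12, 1.12, 1.61, 1.40 and 1.39. On a log2 scale the fold over input was 0.50 ± 0.16 (SD, n = 6) in female ethanol and 0.39 ± 0.23 (SD, n = 5) in female water pools, a difference of 0.10 (exact permutation test, two-sided, p = 0.403). In males it was 0.34 ± 0.19 (SD, n = 6) against 0.31 ± 0.10 (SD, n = 5), a difference of 0.03 (exact permutation test, two-sided, p = 0.784). Neither difference exceeded the spread between pools.

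The shorter Kcnq1ot1 region had its narrowest range in the male ethanol pools. Male ethanol folds ran from 1.33 to 1.5 (median 1.40), and the 5 male water pools had 1.45, 1.29, 1.43, 1.56 and 1.24. In females the ethanol folds ran from 1.05 to 1.80 (median 1.31) and the water pools had 1.15, 1.27, 1.36, 1.52 and 1.40. Female ethanol pool 5 was the highest, from 100 precipitated and 55 input reads. The log2 difference between ethanol and water was 0.01 in both sexes (exact permutation tests, two-sided, p = 0.861 in males and p = 0.996 in females), so the groups were not separated.

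Peg10, a protein-coding gene derived from a retrotransposon and needed for the placenta, had its recurrent region at chr6:4777801-4780600 (2800 bp). This interval is intergenic, and its merged island begins 16.9 kb past the 3′ end of the gene. It was listed in 21 of 22 libraries, all but female water pool 1. Male ethanol folds ran from 1.32 to 1.86 (median 1.57), and male water pools had 1.97, 1.30, 1.27, 1.70 and 1.56. Female ethanol folds ran from 1.23 to 1.62 (median 1.42), and the 4 female water pools with an island had 1.30, 1.74, 1.47 and 1.17. The highest and the lowest male folds were both water pools, and the male log2 difference was 0.02 (exact permutation test, two-sided, p = 0.887). A further H3K9me3 place began 0.083 kb past the 3′ end of Peg10, at chr6:4760601-4766200. It was listed in 10 libraries, with folds of 0.83 to 3.52 and in more ethanol than water pools among females, 5 of 6 against 2 of 5 (Fisher's exact test, two-sided, p = 0.242). Among males 2 of 6 ethanol pools and 1 of 5 water pools had it. Female ethanol H3K9me3 libraries also listed more islands in total, with a median of 62359.5 against 49540 in female water libraries. The part of this in the female count was not tested.

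Grb10, an adaptor protein that restrains insulin and growth factor signalling, had its region at chr11:11916601-11920000 (3400 bp), also intergenic, within an island that begins 10.3 kb past the gene's 3′ end. It was listed in 20 of 22 libraries and was missing from female water pools 2 and 4, the former being the weak H3K9me3 library. Male ethanol folds ran from 0.95 to 1.63 (median 1.25), and male water pools had 1.42, 0.94, 1.25, 1.18 and 1.23. Female ethanol folds ran from 1.07 to 1.35 (median 1.30), and the 3 female water pools with an island had 1.36, 1.39 and 1.16. Input reads thus reached the level of the precipitated reads in 1 library of each male group. The male log2 difference was 0.06 (exact permutation test, two-sided, p = 0.693).

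**Figure D3:**
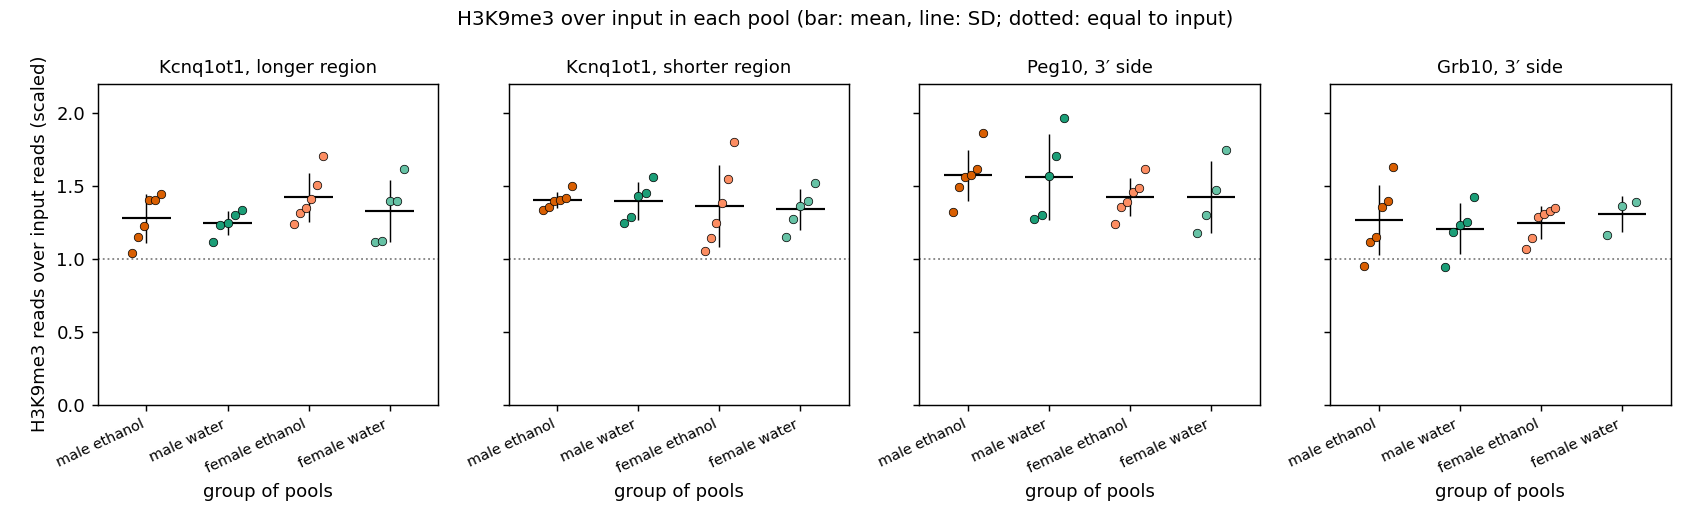
Points give H3K9me3 reads over input reads, scaled by the library constant of the deposited folds (y axis), in each pool that lists an island of the 4 recurrent regions, by group (x axis). The bar is the group mean, the line its SD and the dotted line equals input. Ethanol and water pools overlap in every panel.

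Among all H3K9me3 regions the median fold over input was 1.5. The 4 regions had median folds of 1.32 and 1.39 at Kcnq1ot1, 1.49 at Peg10 and 1.27 at Grb10, which put them at the 16.7, 27.2, 46.9 and 11.1 percentiles. Of these 4 regions, the longer Kcnq1ot1 region was also long for its kind, at the 96.9 percentile of length. The H3K36me3 lists named the same places in many of the same pools. Both marks were listed in 20 and 14 of 22 pools at the longer and shorter Kcnq1ot1 regions and in 15 at Grb10, but in 3 at Peg10. Both marks of a pool were scored against the same input library, so the 2 lists are not independent there.

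At Peg3 and Gnas the H3K9me3 islands were weak. Peg3, which encodes a zinc finger protein and is silent on the maternal copy, had 3 places, seen in 8, 6 and 10 libraries with median folds of 1.05, 0.99 and 0.85. Of their 24 islands, 2 reached an FDR of 0.01. Gnas, which encodes the stimulatory G protein alpha subunit, had places inside the gene in 8 and 3 libraries with median folds of 0.76 and 0.56. Another place, past its 3′ end, in 3 libraries, had a median fold of 1.67. The single Igf2r island, chr17:12787201-12789200, lay 17.5 kb upstream of the gene in 1 female ethanol pool, with 59 precipitated and 26 input reads (2.29-fold). Single Peg3 islands ran from 0.60 to 1.57-fold and those inside Gnas from 0.42 to 1.40-fold, so the islands at these places lay on both sides of scaled input.

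Ethanol and water pools were then compared by edgeR's quasi-likelihood test on precipitated reads, in each sex separately, and a region was called at an unadjusted p of 0.05 or lower. Only regions with an island in all 11 libraries of the sex were tested, and a region's reads move with the length listed in a library. In males, 0 of the 4 H3K9me3 regions was called by edgeR, by DESeq2 or by limma on reads over input, where 2.91% of 27957 regions were called by edgeR. In females, 0 of the 2 that could be tested was called by any of these tools, against 3.99% of 27241 by edgeR. Without female water pool 2, edgeR also called 0 of 2, and the longer Kcnq1ot1 region went from -0.11 to -0.097. It was -0.016 without female ethanol pool 1, -0.052 without female water pool 5 and -0.17 without female ethanol pool 4, and none of these was called. The test of treatment by sex called 0 of 2 regions, against 3.62% of 22077, with log2 differences (female minus male) of 0.19 (SE 0.23) and 0.05 (SE 0.18) for the longer and shorter Kcnq1ot1 regions.

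The male Peg10 region had the lowest p of the 4. Its CPM (precipitated reads scaled to the library's reads in all tested regions) were 18.6 to 21.9 (median 20.4) in ethanol and 10.5 to 20.8 (median 17.3) in water pools. The groups overlapped, and the log2 difference was 0.31 (SE 0.16, edgeR, unadjusted p = 0.0744, adjusted p = 0.999). It was called without male water pool 1 (0.41, edgeR, unadjusted p = 0.0269, adjusted p = 0.999) and without male water pool 4 (0.38, edgeR, unadjusted p = 0.0421, adjusted p = 0.999), while without male water pool 2 it fell to 0.18 (edgeR, unadjusted p = 0.209). As reads over input, centred on the median of all tested regions (limma), it was -0.028. The longer Kcnq1ot1 region in males had 17.3 to 50.4 CPM (median 40.3) in ethanol and 43.1 to 51.6 (median 44.7) in water pools. Its difference was -0.30 (SE 0.17, edgeR, unadjusted p = 0.103, adjusted p = 0.999), and over input, centred in the same way, it was -0.025. It was called without male ethanol pool 6 (-0.39, edgeR, unadjusted p = 0.0377, adjusted p = 1.0), and without male ethanol pool 1, the low library, it was -0.16 (edgeR, unadjusted p = 0.103). Precipitated and input reads were both counted over the length that a library listed, so both vary with that length by construction. The shorter Kcnq1ot1 region and the Grb10 region differed by 0.00 (SE 0.11) and -0.12 (SE 0.16) in males, and leaving out 1 pool moved Grb10 to between -0.21 (without male ethanol pool 3) and -0.040 (without male water pool 5).

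Summed over whole gene windows, H3K9me3 reads could be tested for Kcnq1ot1, Peg10 and Grb10 in males and for Kcnq1ot1 in females. edgeR called 0 of 3 in males, where 3.07% of 8186 windows were called, and 0 of 1 in females, where 5.13% of 7696 were. Over all windows, calls went from 251 to 433 without male ethanol pool 1 and from 395 to 630 without female water pool 3. DESeq2 and limma on reads over input also called 0. The log2 differences in males were 0.26 (SE 0.27) for Peg10, -0.17 (SE 0.18) for Kcnq1ot1 and -0.21 (SE 0.24) for Grb10. Each of them moved by over 1.5 times when 1 pool was left out, for instance to -0.0060 for Peg10 without male ethanol pool 2, to -0.0039 for Kcnq1ot1 without male water pool 4 and to -0.063 for Grb10 without male water pool 1. In females Kcnq1ot1 differed by -0.04 (SE 0.14). The covered length at Kcnq1ot1 was 5.80 to 14.8 kb (median 11.9) in male ethanol and 9.60 to 17 kb (median 11) in male water pools.

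H3K36me3 islands occurred in all 10 windows. Kcnq1ot1 had one in 22 libraries, Peg3 in 21, Gnas in 19, Peg10 in 18, Meg3 in 16, Grb10 in 15, Igf2r in 13, Plagl1 in 10, Nnat in 3 and Mest in 1. Among all gene windows, 9.25% had no H3K36me3 island in any library. The islands merged into 32 places, of which 13 were seen in at least 11 libraries and 6 in a single library, and 129 of the 282 islands (45.7%) had an FDR of 0.01 or lower, against 40.9% of all H3K36me3 islands. At Meg3, Igf2r and Plagl1, H3K36me3 was listed in at least 10 libraries and H3K9me3 in at most 1.

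**Figure D4:**
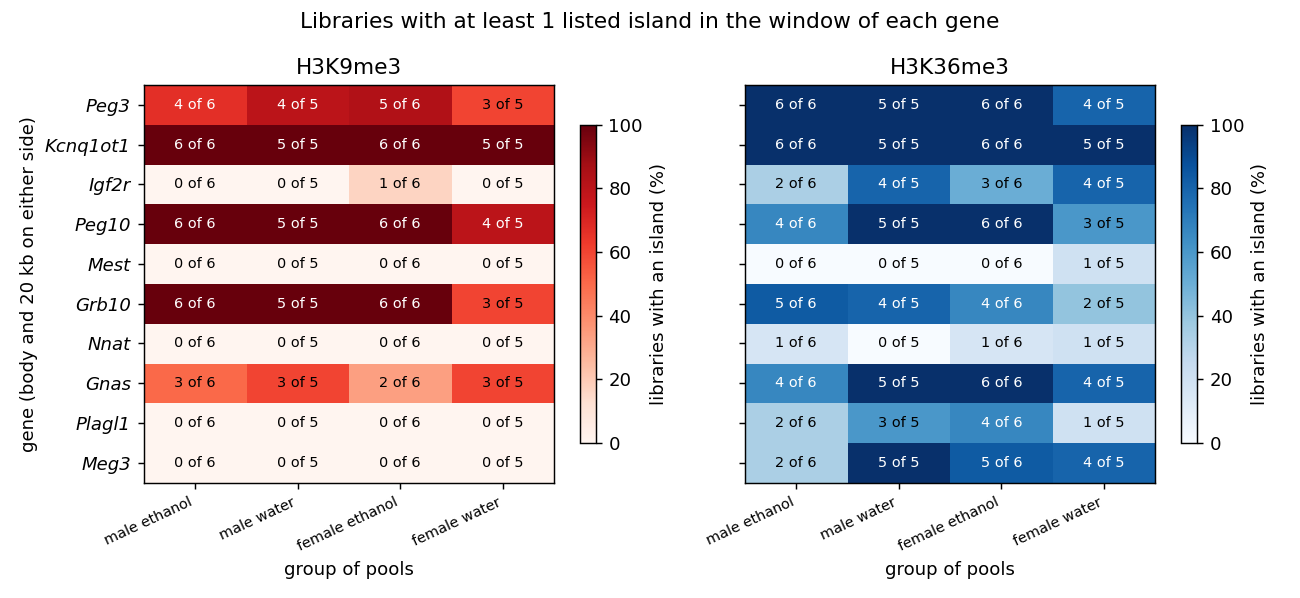
Each cell gives the number of libraries of a group (x axis, 6 ethanol or 5 water pools) with at least 1 listed island in the window of a gene (y axis), for H3K9me3 in red and H3K36me3 in blue. Darker cells mean a higher percentage of libraries. Kcnq1ot1 is full for both marks, and Meg3 has H3K36me3 in 2 of 6 male ethanol and 5 of 5 male water pools.

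These H3K36me3 sequences are shown as examples of mostly unique sequence and of simple repeats among the 12 regions. They are the most widely covered 200-base windows, on the plus strand of GRCm38.p6 with CpGs in capitals, and none overlaps an annotated exon.
Meg3, 3′ side, chr12:109582601-109582800: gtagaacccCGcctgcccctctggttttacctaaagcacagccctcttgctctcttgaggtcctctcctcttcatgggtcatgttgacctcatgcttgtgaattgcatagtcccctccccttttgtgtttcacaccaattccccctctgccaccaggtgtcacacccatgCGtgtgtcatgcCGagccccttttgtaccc
Peg3, 5′ side in Usp29, chr7:6734801-6735000: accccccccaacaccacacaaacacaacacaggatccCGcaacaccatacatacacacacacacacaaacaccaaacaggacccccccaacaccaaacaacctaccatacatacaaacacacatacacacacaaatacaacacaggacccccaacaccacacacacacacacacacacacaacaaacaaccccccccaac
Peg10, 5′ side in Sgce, chr6:4735801-4736000: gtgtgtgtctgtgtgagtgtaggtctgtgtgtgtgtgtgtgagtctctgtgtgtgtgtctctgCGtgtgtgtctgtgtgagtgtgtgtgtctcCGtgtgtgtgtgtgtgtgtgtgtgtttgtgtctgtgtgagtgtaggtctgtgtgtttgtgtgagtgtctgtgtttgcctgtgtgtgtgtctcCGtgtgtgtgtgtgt

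The Meg3 sequence is mostly unique, whereas the Peg3 and Peg10 sequences are simple repeats that hold runs of alternating CA or TG. Runs of at least 4 such units made up more than 5% of the bases in 5 of the 12 regions, against 12.7% of all H3K36me3 regions and none of the 4 H3K9me3 regions. The Sgce region held 26.2%, the 2 Gnas regions 16% and 22.5%, and the Peg3 region shown 21.9%. Their median folds over input were 1.40 at Sgce, 1.19 and 1.07 at Gnas and 1.38 at Peg3. The part that simple repeats have in these islands was not tested.

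Meg3, a long RNA read from the maternal chromosome, had the strongest H3K36me3 region of the 12. It lay at chr12:109581801-109583400 (1600 bp), in an island that begins 8.27 kb past the annotated end of Meg3. Its median fold was 2.28, at the 99.5 percentile of all H3K36me3 regions, and 7.31% of it was repeat. The 2 male ethanol pools that listed it (2 of 6) had folds of 1.51 and 1.45, and the 4 male water pools that did (4 of 5) had 2.92, 1.97, 2.73 and 2.43. The 3 female ethanol pools (3 of 6) had 1.79, 2.52 and 2.05, and the 2 female water pools (2 of 5) had 2.70 and 2.28. Male water pool 1, with the 2.92, also had the highest median fold of all 22 H3K36me3 libraries, 1.71. Both male ethanol values lay under all 4 male water values, that pool included or not, but pools without an island have no value in the lists and the male difference in presence was not called (Fisher's exact test, two-sided, p = 0.242).

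Inside the body of Meg3, a further place at chr12:109558401-109566400 was listed in 12 libraries with folds of 1.44 to 2.84, namely 4 male pools (2 ethanol and 2 water) and 8 female pools (4 of each). A short place 0.474 kb past the gene's end was listed in 4 female pools and no male pool, with folds of 2.37 to 8.03 from 28 to 40 precipitated reads. The highest, 8.03 in female water pool 5, rested on 40 precipitated and 5 input reads. Over the whole window Meg3 had an island in 2 of 6 male ethanol pools and 5 of 5 male water pools, but in 5 of 6 female ethanol and 4 of 5 female water pools. The 2 male ethanol pools with one, pools 2 and 5, listed 38162 and 46919 H3K36me3 islands in total. Pools 1, 3, 4 and 6 listed 26818, 34480, 19617 and 28973, and the male water pools 29739 to 43060. Neither the count over the Meg3 window nor the part of the library totals in it was tested.

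Igf2r, the receptor that clears the growth factor IGF2, had H3K36me3 at 6 places. One of them, singled out after its values were seen, lay in the 3′ part of the body, at chr17:12696601-12699400. The 6 libraries share its first 1400 bases, chr17:12696601-12698000. This 200-base stretch from the shared part overlaps no annotated exon and is on the plus strand of GRCm38.p6 with its CpG in capitals, and it is shown because its island was listed in water pools alone.
Igf2r, chr17:12696801-12697000: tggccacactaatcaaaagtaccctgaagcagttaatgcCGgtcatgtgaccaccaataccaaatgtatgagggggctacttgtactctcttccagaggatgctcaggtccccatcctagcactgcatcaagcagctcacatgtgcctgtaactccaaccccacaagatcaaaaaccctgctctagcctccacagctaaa

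The island was listed in 0 of 12 ethanol pools and 6 of 10 water pools of both sexes. Male water pools 1, 2 and 3 had 35, 52 and 52 precipitated reads over 24, 27 and 22 input reads, with deposited folds of 2.37, 2.13 and 2.82. Female water pools 2, 4 and 5 had 75, 36 and 95 reads over 25, 28 and 27 input reads, with folds of 2.86, 2.28 and 3.53. All 6 islands had an FDR of 0.01 or lower. The difference was called when both sexes were joined (Fisher's exact test, two-sided, p = 0.00281), but this test was added after the pattern had been seen, and its p adjusted over all 41910 places tested was 1. Each sex alone had 0 of 6 against 3 of 5 (Fisher's exact test, two-sided, p = 0.0606). Only places listed in 4 to 18 of the 22 libraries were tested in this way, 16 of them overlapping the 10 windows. Each place was counted over its whole length, also where it ran past a window. The Igf2r place was the only one of these 16 to be called, where 3.45% of all H3K36me3 places tested were called and 2.30% were called with fewer ethanol pools. The next lowest p leaned the other way, at a Peg10 place with 6 of 12 ethanol and 1 of 10 water pools (Fisher's exact test, two-sided, p = 0.0743). That place runs past the end of the Peg10 window, and islands that overlap the window came from 3 ethanol and 0 water pools.

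Other H3K36me3 places in the body of Igf2r were listed more thinly or evenly. One was listed in 1 ethanol and 2 water pools, and 2 others in a single water pool each and no ethanol pool. The most widely listed, in the middle of the gene at chr17:12726201-12731600, was listed in 2 pools of every group, with folds of 1.44 to 3.18. The H3K36me3 libraries themselves differed in number of islands, with medians of 31726.5 in male ethanol and 35171 in male water pools, and 36527 in female ethanol and 41258 in female water pools. The part of this in the Igf2r count was not tested.

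**Figure D5:**
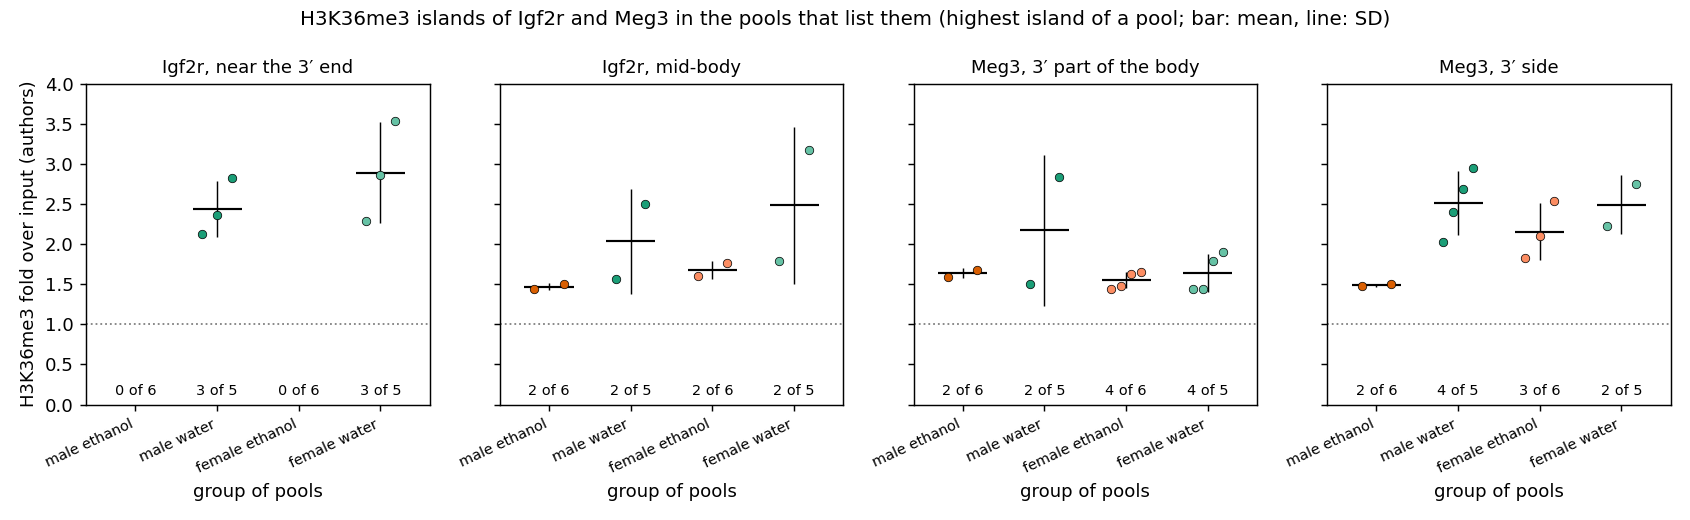
Points give the deposited H3K36me3 fold over input (y axis) of the highest island of a pool at 2 places of Igf2r and 2 of Meg3, by group (x axis). Bars and lines are mean and SD, and the number under each group is how many pools list the place. The Igf2r place near the 3′ end has points in water pools alone, with folds of 2.13 to 3.53.

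Kcnq1ot1 had 3 H3K36me3 regions inside its transcript. The 2 that overlap the H3K9me3 regions had median folds of 1.09 and 1.08, at the 20.3 and 16.9 percentiles. The third, chr7:143240601-143242800, had a median fold of 1.37 and was the only H3K36me3 region in the 10 windows that could be tested for a change in reads. Its female ethanol folds ran from 1.06 to 1.54 (median 1.35), and female water pools had 1.48, 1.21, 1.29, 1.31 and 1.53. The log2 difference in reads was -0.07 (SE 0.17, edgeR, unadjusted p = 0.700, adjusted p = 0.995). edgeR, DESeq2 and limma on reads over input called 0 of 1, against 3.61% of 9018 regions for edgeR. In males no region in the windows had an island in all 11 libraries, and 5.71% of 7532 tested regions were called. The test of treatment by sex likewise had no region in the windows, and 5.92% of 5760 were called.

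Peg3 in males had the largest H3K36me3 difference of the whole windows that could be tested with all pools and all listed islands. Male ethanol pools had 14.3 to 53.5 CPM (median 29.4) and male water pools 35.4 to 62.6 (median 52.9). The groups overlapped, and the covered length was 1.40 to 8.00 kb (median 2.90) in ethanol and 3.40 to 7.20 kb (median 4.40) in water pools. The log2 difference was -0.60 (SE 0.33, edgeR, unadjusted p = 0.0846, adjusted p = 0.481). It was called without male ethanol pool 2 (-0.76, edgeR, unadjusted p = 0.0402, adjusted p = 0.442) and without male ethanol pool 3 (-0.79, edgeR, unadjusted p = 0.0282, adjusted p = 0.494), and was smaller without male ethanol pool 1 (-0.41, edgeR, unadjusted p = 0.194) and without the shallow male ethanol pool 4 (-0.50, edgeR, unadjusted p = 0.153). Without TMM factors, which scale libraries by their bulk of windows, it was -0.29 (edgeR, unadjusted p = 0.463), and over input, centred, -0.12. The female Peg3 window could be tested without female water pool 4, at 0.055 (SE 0.27). With islands of an FDR of 0.01 or lower it was 1.18 (SE 1.56), where a library without such an island counted as 0 reads. Neither female value was called. In males 0 of 2 windows was called by edgeR, DESeq2 or limma on reads over input, where 11.6% of 4433 windows were called by edgeR (516, or 778 without male ethanol pool 5), and Kcnq1ot1 differed by -0.24 (SE 0.31). In females 0 of 1 was called by these tools, where 4.21% of 5227 were called by edgeR (220, or 143 without female water pool 5), and Kcnq1ot1 differed by -0.07 (SE 0.31).

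The Peg3 islands lay outside its own body. They were within Zim1, an imprinted zinc finger gene past its 3′ end, in 13 and 20 libraries, and within Usp29, a ubiquitin protease gene that starts on its 5′ side, in 19. Their median folds were 1.33, 1.29 and 1.38. The Gnas regions, both in introns of the gene, were each listed in 17 libraries, with folds of 0.79 to 2.16 and of 0.65 to 1.91. At Peg10 one region lay within Sgce, which shares its promoter, in 18 libraries, and another lay just past the 3′ end of Peg10 in 12 libraries, with median folds of 1.40 and 1.45. The Grb10 region overlapped the H3K9me3 region and had a median fold of 1.24 in 15 libraries.

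The remaining genes had few islands. Plagl1, which encodes a zinc finger regulator of growth, had an intronic place, chr10:13079401-13080400, in 9 libraries with folds of 0.97 to 2.12. Nnat, a small membrane protein of developing brain, had 1 place 13.3 kb upstream in 3 libraries, with folds of 3.12, 2.70 and 1.75. Mest, which encodes a hydrolase-like membrane protein, had a single island 1.74 kb past its 3′ end in female water pool 4, with 37 precipitated and 30 input reads and a fold of 2.19.

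The presence of H3K36me3 islands was also tested by Fisher's exact test within each sex, for regions listed in 3 to 8 of the 11 libraries. In males 0 of 6 regions in the windows was called, the lowest p being 0.242, where 2.48% of 14583 regions were called. In females 0 of 6 was called, the lowest p being 0.545, where 0.521% of 13056 were called. For H3K9me3 no region in the windows met this range in either sex, where 0.666% of male and 2.10% of female regions were called. With both sexes joined, places listed in 4 to 18 of the 22 libraries were tested. Of the 7 such H3K9me3 places in the windows 0 was called, where 3.14% of 32013 were called and 0.203% were called with fewer ethanol pools.

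The genes next to these loci in the same imprinted domains were counted in the same way. Of 21 neighbours, 14 had an H3K9me3 island in at least 11 libraries, 7 in all 22 and 6 in none, and 14 had H3K36me3 in at least 11. Of 11 imprinted genes of other domains, 5 had H3K9me3 in at least 11 libraries and 4 in none. H3K9me3 was found in all 22 libraries at the windows of Usp29, Kcnq1, Airn, Slc22a2, Ppp1r9a, Asb4 and Copg2, and in none at Cdkn1c, Phlda2, Slc22a18, Slc22a3, Rtl1 and Rian. Some of these windows share islands with those above. Of the neighbours' windows that could be tested, 0 of 8 was called for H3K9me3 in males and 1 of 7 in females, where 3.07% and 5.13% of all windows were called, with median log2 differences of -0.067 and -0.14 against -0.00025 and -0.0049 over all windows tested. The 1 called was Slc22a2, an organic cation transporter gene next to Igf2r, which was lower in female ethanol pools (log2 difference -0.42, SE 0.14, edgeR, unadjusted p = 0.0106, adjusted p = 0.856). Over input its difference was 0.05 and was not called (limma, unadjusted p = 0.636, adjusted p = 0.977). For H3K36me3, 0 of 4 neighbours was called by edgeR in either sex, where 11.6% of all windows were called in males and 4.21% in females, with medians of -0.39 against 0.03 over all windows in males and -0.04 against 0.0072 in females. None of the 3 male and 2 female windows of the other domains that were tested for H3K9me3 was called by edgeR, against the same 3.07% and 5.13%.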

How the data were processed

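The analysis started from the 44 island lists of H3K9me3 and H3K36me3 in 22 pools. The members and the gene lists were chosen with earlier results of these data known. The authors trimmed the 150-bp single-end reads with cutadapt, aligned them with Bowtie2 2.4.1 to GRCm38, which is built from C57BL/6J and not from DBA/2J, and called islands against input with SICER (200-bp windows, gap of 400 bp for H3K9me3 and 600 bp for H3K36me3). For H3K9me3 they also removed blacklisted and multiply mapped reads, and whether they did so for H3K36me3 is not given in the sources used here. They combined 8 technical precipitations per pool and mark. Per island the authors deposited the count of precipitated reads, the count of input reads, a p-value, a fold ratio over input divided by a constant of the library, and an FDR (q-value). The lists are not filtered on FDR, and reads outside islands are not in them.

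Reads of an island were spread evenly over its 200-bp windows. Regions were positions covered in at least 11 of 22 libraries of a mark, and gene windows were GENCODE vM21 bodies with 20 kb on either side. Where all 11 libraries of a sex had an island, reads rounded to whole counts were tested over all regions or windows with edgeR 4.0.16 (R 4.3.3; TMM factors, filterByExpr, quasi-likelihood F-test, Benjamini-Hochberg adjustment), called at an unadjusted p of 0.05 as in the study, after a test on simulated data with 200 changed features. Folds over input used reads over input divided by the library constant, compared by exact permutation tests over pools, and presence used Fisher's exact test. DESeq2 1.42.0 and limma 3.58.1 (log2 of reads over input with a pseudocount of 1) were alternatives. Named were all 10 genes, their strongest region per mark, and every region or window called in any fit. Sequences came from the GRCm38.p6 genome of RefSeq and were processed with Biopython 1.88. Fewer reads in an island give a wider counting error, and the folds of 20 to 100 reads quoted here carry it in addition to the spread between pools. A sequence and a place next to a gene of the set are not reported here.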

Additional observations from a re-analysis of the deposited data

Results flagged for a closer look

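In 50 groups of 4 to 6 pools that were checked for a pool far from the rest, 5 held one, and chance gives about 1 in 20. All 5 concerned H3K36me3, as log2 fold over input. At the Gnas region that begins at chr2:174289601-174290200, male water pool 1 stood at 1.11 with the next pool at 0.25, and female water pool 1 stood at 0.81 with the next at 0.31. At the Kcnq1ot1 region chr7:143222201-143225200, female water pool 5 stood at 0.80 with the next at 0.15. At the Grb10 region chr11:11917801-11919600, male water pool 2 was low at 0.086 with the next at 0.31. At the Peg3 region chr7:6734001-6735600, female ethanol pool 6 was low at 0.18 with the next at 0.53. Male water pool 1 also had the highest fold of its group at Meg3, 2.92, and the highest median fold of all 22 H3K36me3 libraries, 1.71.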

How the results depend on the processing

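No read count in the 10 windows was called by edgeR with TMM factors, by DESeq2, by limma on reads over input, by edgeR without TMM factors, or by edgeR without the filter on low counts. With islands of an FDR of 0.01 or lower, 1 H3K9me3 region and 1 H3K9me3 window in males and 2 H3K36me3 windows in females could be tested, and 0 was called by edgeR. In that fit of the female H3K36me3 windows, a library without such an island counted as 0 reads. With gene bodies alone, 0 of 1 window was called for each mark and sex. With the pool number as a replicate block, the calls among the male H3K9me3 regions went from 0 to 1, the longer Kcnq1ot1 region at -0.44 (edgeR, unadjusted p = 0.0151, adjusted p = 0.999). The pool numbers were not found to pair pools (correlations of same-numbered pools from -0.12 to 0.07, 0 of 20 above 0.1). Leaving out 1 pool at a time, the male H3K9me3 regions had 0 to 1 calls and the male H3K36me3 windows 0 to 1. Differences in reads ran from 0.18 to 0.41 (Peg10) and from -0.39 to -0.16 (longer Kcnq1ot1) for male H3K9me3 regions, and from -0.79 to -0.41 (Peg3) and from -0.35 to -0.052 (Kcnq1ot1) for male H3K36me3 windows. The differences in log2 fold over input then ran from -0.025 to 0.14 for Grb10 in males, from -0.030 to 0.053 and from -0.081 to 0.075 for the shorter Kcnq1ot1 region in males and females, and from -0.045 to 0.11 for Peg10 in males. The differences in reads that turned ran from -0.057 to 0.053 and from -0.013 to 0.16 for the shorter Kcnq1ot1 H3K9me3 region in males and females, from -0.0060 to 0.43 for the male Peg10 window, from -0.12 to 0.042 for the female Kcnq1ot1 H3K9me3 window, and from -0.15 to 0.018 and from -0.24 to 0.095 for the female Kcnq1ot1 H3K36me3 region and window. Among values in the 10 windows, signs that turned belonged to uncalled values. Over input, the male regions became -0.028 (Peg10), -0.042 (shorter Kcnq1ot1) and 0.0067 (Grb10), the female Kcnq1ot1 regions 0.029 and -0.069, the male windows -0.085 (Peg10), 0.0030 (Kcnq1ot1) and 0.0031 (Grb10), and the female H3K36me3 region 0.0042. With the block, the shorter male Kcnq1ot1 region became -0.013, the female H3K36me3 region 0.021 and the female H3K36me3 window 0.10. Without TMM factors, the Kcnq1ot1 windows became 0.031 (H3K9me3, females) and 0.073 (H3K36me3, males), and scaled by aligned totals the longer female Kcnq1ot1 region became 0.0060. The cause of these changes was not tested. Dropping TMM factors moved the median of all male H3K36me3 windows to 0.30 (regions 0.18), and aligned totals moved that of all female H3K9me3 regions to 0.12. Over all features, limma on reads over input, which changed the test and the scaling together, moved 2 counts of calls. They went from 814 to 1519 (male H3K9me3 regions) and from 251 to 497 (male H3K9me3 windows). Calls among male H3K9me3 regions were 539 with aligned totals. Calls went from 430 to 678 without TMM factors (male H3K36me3 regions) and from 220 to 122 with the block (female H3K36me3 windows). Calls that were higher in ethanol were 228 of 516 male H3K36me3 windows, but 436 of 496 without TMM factors, and 585 of 1088 female H3K9me3 regions, but 1556 of 1592 with aligned totals. With islands of an FDR of 0.01 or lower, male H3K36me3 regions gave 0 calls of 795 and female ones 0 of 1821. Those male regions included some that not all 11 libraries listed, with missing islands as 0. With all listed islands, reads could be tested only where all 11 libraries of a sex listed an island, at 1 of 12 H3K36me3 regions and 4 of 4 H3K9me3 regions. Counting error alone is large at 20 to 100 reads.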

Other observations

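Imprinted genes outside these domains were counted too. Of these 11 genes, 2 had an H3K9me3 island in all 22 libraries and 4 in none. Among all gene windows the shares were 22.3% and 40.4%, and no difference between the groups was tested. H3K9me3 islands lay in the windows of Rasgrf1, a guanine nucleotide exchange factor of neurons, and Inpp5f, a phosphoinositide phosphatase, in 22 of 22 libraries each, and of Sfmbt2, a Polycomb group gene, in 21. The windows of H19, Nap1l5, Mcts2 and Zrsr1 had none in any library, and that of Igf2 had one in 7. In the Meg3 domain, the neighbours Dlk1 and Mirg had H3K9me3 islands in 15 and 20 libraries, while Meg3, Rtl1 and Rian had none. H3K36me3 was listed at Dlk1 in 19 libraries, at Rtl1 in 13, at Rian in 10 and at Mirg in 8.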
